A study of Mus musculus with 7 samples.

Results

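Fibroblast growth factor (FGF) ligands were followed through the early kidney lineage of the mouse. The 10 ligand genes chosen were Fgf1, Fgf7, Fgf8, Fgf9, Fgf10, Fgf15, Fgf16, Fgf17, Fgf18 and Fgf20, and each was read by the non-control probes that the array files name for it. They had 15 of the 55681 probes and made up 10 of the 27126 named genes. FGFs are secreted proteins that bind receptor tyrosine kinases of the Fgfr family together with heparan sulfate at the cell surface, and the receptors act through the Ras and MAP kinase pathway on targets that include Etv transcription factors and the feedback inhibitors Sprouty, Spred and Dusp. Ligands of the Fgf7 subfamily (Fgf7 and Fgf10) bind the epithelial splice form of Fgfr2, and those of the Fgf8 subfamily (Fgf8, Fgf17 and Fgf18) and the Fgf9 subfamily (Fgf9, Fgf16 and Fgf20) bind mainly mesenchymal splice forms. Fgf1 binds all of the receptors, and Fgf15 is a hormone-like FGF of the mouse. In the developing kidney, Fgf9 and Fgf20 are known for keeping nephron progenitors alive and undifferentiated, Fgf10 for growth of the ureteric bud, and Fgf8 for survival of cells that start to form nephrons.

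The cells came from C57BL6J embryos with a GFP knock-in at Osr1, a transcription factor gene of intermediate and lateral plate mesoderm, and all 7 sorted populations shared this genotype. At embryonic day 8.5 (E8.5) whole embryos were sorted by green fluorescence into GFP-positive (GFP+) and GFP-negative (GFP-) cells. From the caudal part of the embryo at E9.5 came gated cells, which were GFP+ and Itga8+ and lacked Pdgfra, with ungated cells, that is all GFP+ cells outside the gate, and GFP- cells. From the metanephric mesenchyme at E11.5 came gated and ungated cells, split by the same gate. The study was designed to set nephron progenitors, enriched by the gate, against the mesenchyme around them. The populations are defined by the sort alone, and the number of embryos behind each is not given in the sources used here. Each population had 1 array, so there were no replicates, no test was run, and each fold compares 2 arrays without a measure of how far embryos or sorts vary.

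A level is the log2 signal of a probe minus the log2 75th percentile of its array, so that 0 is the 75th percentile. Levels of different ligand probes were not compared. Marker lists are also given as sums of linear levels, in which bright probes weigh most, so a sum can rest on few genes. Between 60.2% and 85.4% of genes were well above background per array, the E8.5 GFP- array being the lowest and the E9.5 ungated array the highest. Osr1 was well above background on the 5 arrays of GFP+ cells and not on the GFP- ones. Six2, a transcription factor of nephron progenitors, stood at levels of 1.16 and 4.10 in the gated cells of E9.5 and E11.5 and at -2.63 and -3.58 in the ungated cells. Of the 8 nephron progenitor markers, 3 were past 4-fold higher in the gate than in the ungated cells at E9.5 and 5 at E11.5, with 0 lower, against 0.839% and 2.15% of all genes higher. Cited1 went the other way at E9.5, at 3.18 in the gate and 4.45 in the ungated cells, and Eya1 stood at 8.80 and 9.01. Foxd1, the marker of renal stroma, stood at 2.67 in the gate and 1.89 in the ungated cells of E9.5, and at 1.69 and 6.14 in those of E11.5. In the list of ureteric bud markers, 5 of 6 were above background at E11.5 with summed linear levels of 0.882 and 0.993 (the 75th percentile of an array being 1), and Ret, the receptor of the bud, was not. Red blood cell markers summed to 2070 and 1140 on the GFP- arrays of E8.5 and E9.5 and to between 0.524 and 9.84 on the others. The gated and GFP- arrays of E9.5 were on one slide and the other 5 arrays on another.

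Of the 10 ligands, between 6 and 8 were well above background per array. Fgf1, Fgf8, Fgf10, Fgf17 and Fgf18 were above background on all 7 arrays, Fgf9 on 6, Fgf15 on 4 and Fgf20 on 3. Fgf7 and Fgf16 were above background on 1 array each. The ligands differed widely in how far their levels moved. From the highest to the lowest array above background, Fgf8 and Fgf17 spanned 0.54 and 0.65 log2 units, whereas Fgf9, Fgf10, Fgf1 and Fgf18 spanned 4.44, 4.31, 4.6 and 5.41.

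**Figure D1:**
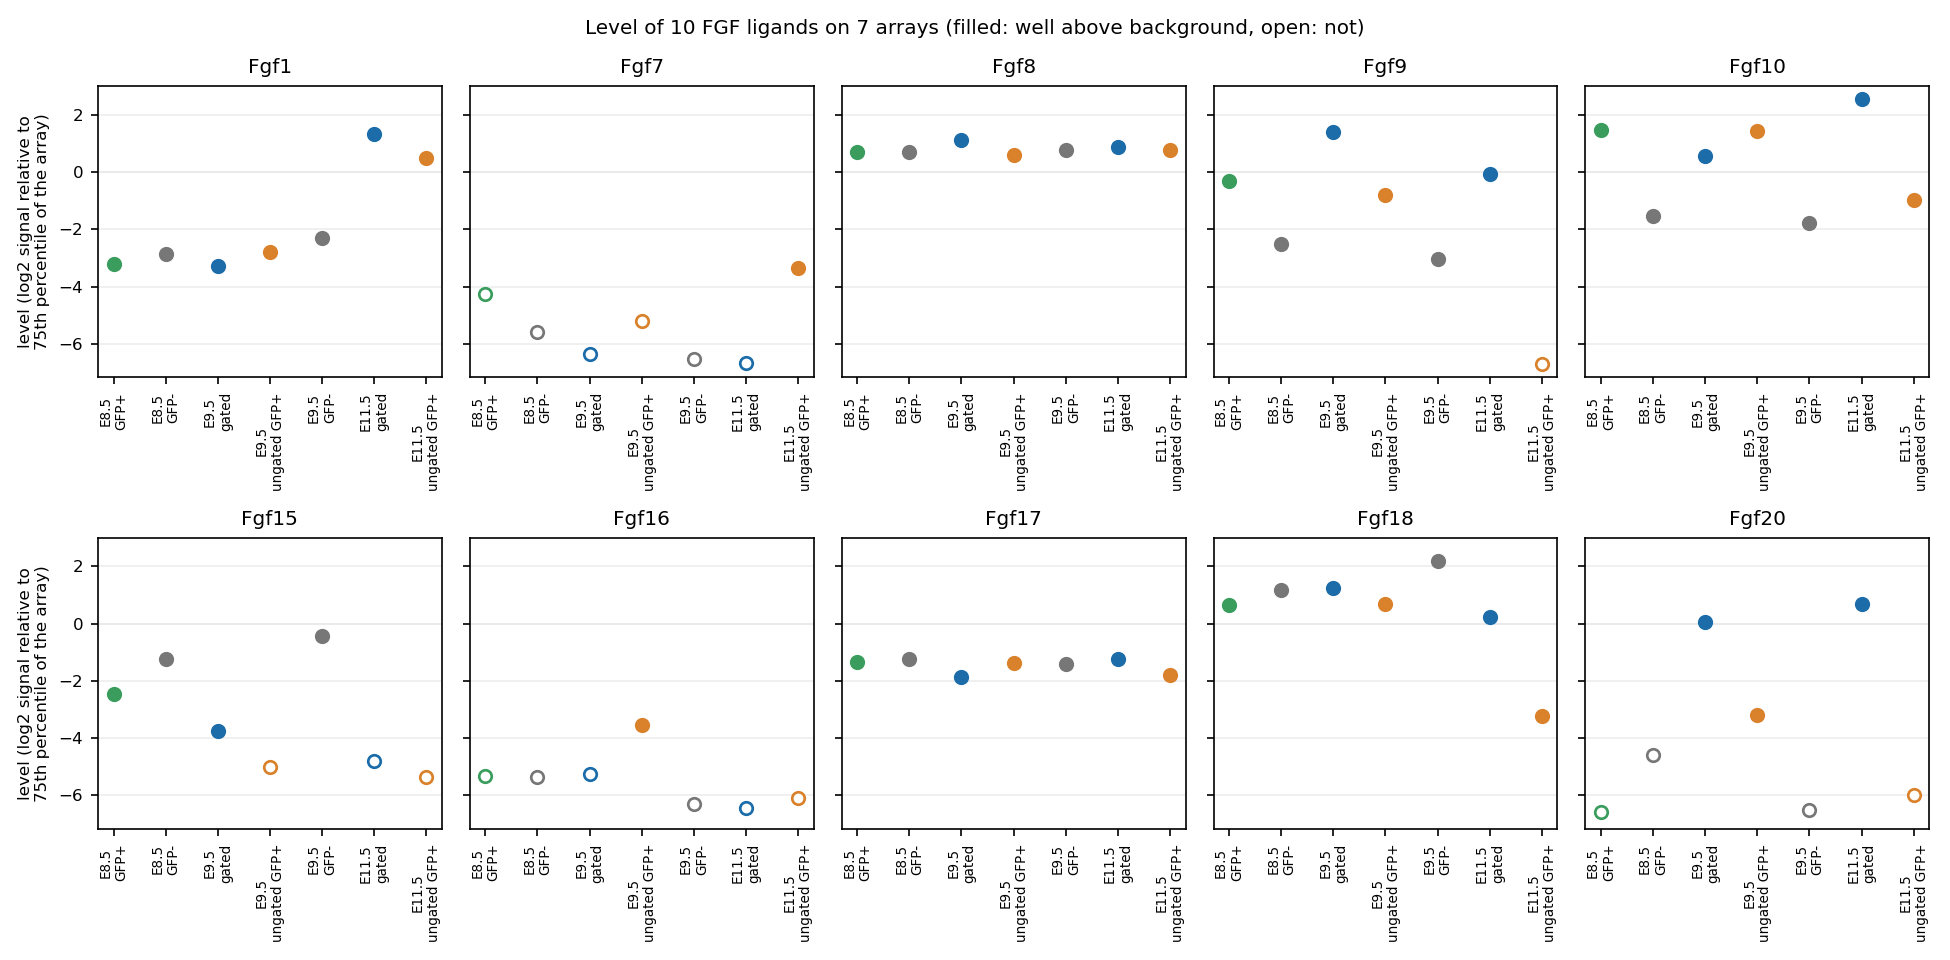
Level of each of the 10 ligands (log2 signal relative to the 75th percentile of the array) on the 7 arrays, 1 point per array, filled where the probe was well above background and open where it was not. Fgf20 reached 0.06 and 0.69 in the gated cells of E9.5 and E11.5 and was open on 4 arrays, Fgf8 and Fgf17 stayed within 0.54 and 0.65 units, and Fgf1 was above 0 on the E11.5 arrays alone.

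Fgf9 had its highest level in the E9.5 gate and was lost from view in the ungated E11.5 cells. Its levels at E8.5 were -0.29 in GFP+ and -2.52 in GFP- cells. At E9.5 they were 1.42 in the gate, -0.79 in the ungated cells and -3.02 in the GFP- cells. At E11.5 the gate stood at -0.06 and the ungated cells at -6.71, which was not well above background. GFP+ cells were thus higher than GFP- cells at both early stages, the gate was higher than the ungated cells at both later stages, and the gate itself was 2.79-fold lower at E11.5 than at E9.5. In the ungated cells the level was at least 19-fold lower at E11.5 than at E9.5. The wider gap at E11.5 thus came with a lower level on both sides. Here and below, "at least" sets a dim signal at the lowest above-background level of its array, unless it was read higher. Some signals over that level were still not above background, so these folds and bounds are not strict limits. The Fgf9 probe lies on chromosome 14, from 58728897 to 58728956 in mm9.

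Fgf20, the close relative of Fgf9, had its highest levels in the gate at both stages. The probe with the higher mean gave levels of 0.06 in the E9.5 gate and 0.69 in the E11.5 gate, which differed by 1.55-fold. It gave -3.19 in the ungated cells of E9.5, and its signals of -6.59, -4.58, -6.51 and -5.98 in the GFP+ and GFP- cells of E8.5, the GFP- cells of E9.5 and the ungated cells of E11.5 were not well above background. The gate of E9.5 was at least 35.7-fold above E8.5 GFP+ cells and at least 22.5-fold above the E9.5 GFP- cells. Because this ligand is read by a pair of overlapping probes on the minus strand of chromosome 8, their sequences are shown, with the stretch they share in capitals. The first covers mm9 positions 41365111 to 41365170, and of the second only the 28 shared bases, 41365111 to 41365138, are given.
Fgf20 A_55_P2169499: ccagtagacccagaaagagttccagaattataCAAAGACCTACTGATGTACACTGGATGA
Fgf20 A_55_P2180059, shared bases: CAAAGACCTACTGATGTACACTTGATGA
The shared stretch differed by 1 substitution, G23T, counted from 1 at its 5′ end with the base of A_55_P2169499 first. The A_55_P2169499 probe was above background on the same 3 arrays, with levels of -1.09, -3.58 and -0.83 in the E9.5 gate, the ungated E9.5 cells and the E11.5 gate. On the log2 scale the difference of the E9.5 gate from the ungated cells was 2.49 with this probe and 3.25 with the other one, and at E11.5 the bounds were 4.21 and 5.73. The probes share bases, so the second is no independent measurement.

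Fgf16, the third ligand of the Fgf9 subfamily, was well above background in the ungated cells of E9.5 alone, at -3.54. Its 6 remaining signals lay between -6.43 and -5.24. The ungated E9.5 cells were at least 2.09-fold above the E9.5 gate, at least 1.85-fold above the GFP- cells and at least 2.82-fold above the ungated cells of E11.5. These folds are lower bounds and were not counted as 4-fold. Taking the dim signals as read, without a filter or bound, the log2 difference was 2.76 for the ungated minus the GFP- cells of E9.5 and -2.54 for the ungated cells of E11.5 minus those of E9.5, both past 4-fold. On the array with the Fgf16 signal all 6 heart and pharyngeal mesoderm markers were above background with a summed level of 6.91, against 3 of 6 and 1.41 in the E9.5 gate, 6 of 6 and 1.82 in the GFP- cells, and 6 of 6 and 5.40 in GFP+ cells of E8.5. It was also the array with the most genes above background, and the part of either in the Fgf16 signal was not tested.

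Fgf10, which mesenchyme makes for the epithelium next to it, lay lower in the gate than in the ungated cells at E9.5 and higher at E11.5. This probe is spotted 10 times per array, of which 8 to 10 spots were used, so its levels carry a spot error. At E8.5 its level was 1.47 ± 0.06 in GFP+ and -1.53 ± 0.13 in GFP- cells (mean ± SD over 9 and 8 spots). At E9.5 it was 0.56 ± 0.06 in the gate, 1.44 ± 0.07 in the ungated cells and -1.76 ± 0.12 in GFP- cells (9, 9 and 10 spots). At E11.5 it was 2.55 ± 0.05 in the gate and -0.97 ± 0.08 in the ungated cells (8 and 9 spots). Spots of different arrays overlapped only between E8.5 GFP+ and ungated E9.5 cells, which spanned 1.34 to 1.54 and 1.31 to 1.52, and between the GFP- cells of E8.5 and E9.5, which spanned -1.73 to -1.28 and -2.01 to -1.60. Spot error covers the array surface alone and says nothing of embryos or sorts.

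**Figure D2:**
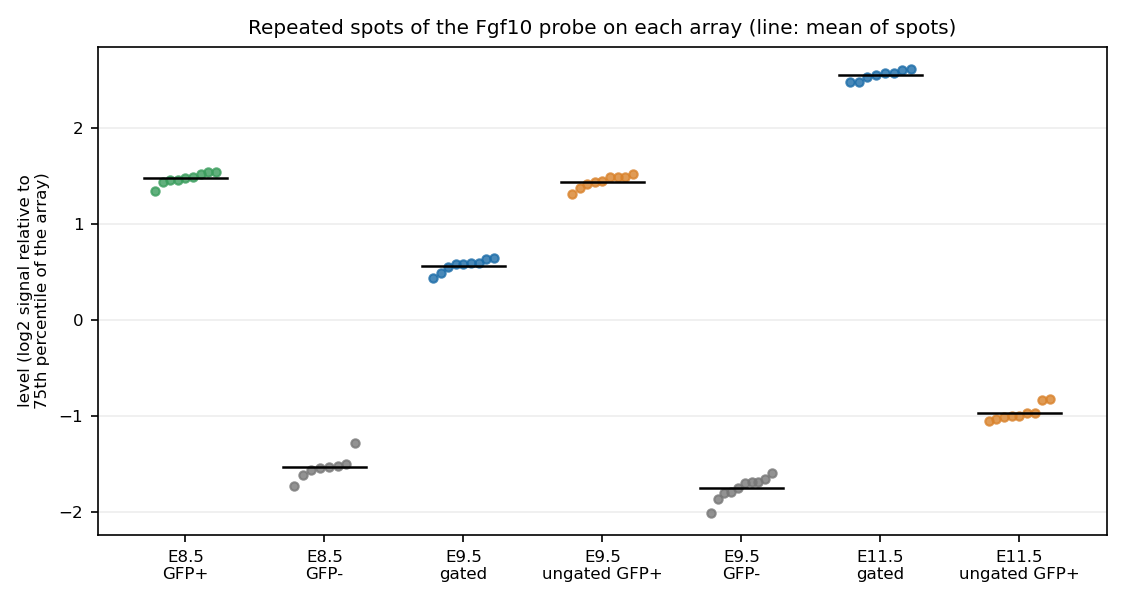
Level of every used spot of the Fgf10 probe (log2 signal relative to the 75th percentile of the array) by population, 8 to 10 spots per array, with a line at their mean. The E11.5 gate lies highest at 2.55, the E9.5 gate at 0.56 lies below the ungated cells of its stage at 1.44, and the GFP- arrays lie lowest.

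GFP+ cells held 8.05-fold more Fgf10 signal than GFP- cells at E8.5. At E9.5 the ungated cells held 9.17-fold and the gate 5.0-fold more than the GFP- cells, and the gate was 1.83-fold below the ungated cells. At E11.5 the gate was 11.4-fold above the ungated cells. Between the stages the gate was 3.96-fold higher at E11.5, just short of the 4-fold used for counting, while the ungated cells were 5.29-fold lower. The probe lies on chromosome 13 from 119580365 to 119580424 in mm9. In sorted cells measured in bulk, fewer cells of a type and less RNA per cell cannot be told apart, here or for any other ligand.

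Fgf7, which stromal and other mesenchymal cells make and which acts on the same receptor form, was well above background in the ungated cells of E11.5 alone. It stood there at -3.36, and the 6 remaining signals lay between -6.66 and -4.25. The ungated E11.5 cells were at least 3.39-fold above the gate and at least 2.40-fold above the ungated cells of E9.5, which are lower bounds and were not counted as 4-fold. Without a filter or bound the gate was past 4-fold lower than the ungated E11.5 cells, with a log2 difference of -3.30, and with quantile normalization the ungated cells of E11.5 were past 4-fold above those of E9.5, with 2.41. Fgf7 was the 1 ligand that was over 2-fold lower in the E11.5 gate. The markers of renal stroma and mesenchyme were all above background (8 of 8) with a summed level of 184 on the array with Fgf7, against 5 of 8 and 14.6 in the E11.5 gate, where Pdgfra, Tbx18 and Twist1 were not above background. Pdgfra was also used to sort the cells, so its low signal in the gate was set by the sort. On the remaining arrays the 8 markers were above background and summed to between 20.8 and 58.6. Their part in the Fgf7 signal was not tested.

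Fgf18, known mainly from skeletal and lung development, was lowest in the ungated cells of E11.5. Its levels were 0.67 and 1.17 in the GFP+ and GFP- cells of E8.5, and 1.24, 0.69 and 2.20 in the gated, ungated and GFP- cells of E9.5. At E11.5 the gate stood at 0.22 and the ungated cells at -3.21. The E11.5 array of ungated cells was thus the low one, 10.8-fold below the gate and 15-fold below the ungated cells of E9.5, while the 6 arrays besides lay within 2 log2 units of each other. The GFP- cells of E9.5 were highest, 2.86-fold above the ungated and 1.96-fold above the gated cells. Another Fgf18 probe, which overlaps the first on chromosome 11 (33017440 to 33017499 and 33017474 to 33017533 in mm9), showed the same low array, with bounds of 2.59 on the log2 scale for the gate minus the ungated cells of E11.5 and -3.16 for the ungated cells of E11.5 minus those of E9.5. As with Fgf20, the overlapping probe is no independent measurement.

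Fgf8, on its probe with the highest mean, and Fgf17 gave nearly level profiles. Fgf8 is required for gastrulation and later for nephron formation, and Fgf17 is its relative in the tail bud and brain. Fgf8 stood between 0.60 in the ungated cells of E9.5 and 1.14 in the gate of E9.5, on the probe with the highest mean. Fgf17 stood between -1.87 in the E9.5 gate and -1.22 in the E11.5 gate. On these probes no difference of either ligand reached 2-fold in the 8 comparisons. On a second Fgf8 probe the profile was less level: it stood at -2.12 in the E11.5 gate and -3.70 in the ungated E11.5 cells, a log2 difference of 1.58 where the first probe gave 0.12. The sequence of this probe (minus strand, chr19:45811668-45811727 in mm9) is shown because the less level profile of Fgf8 was read with it.
Fgf8 A_55_P2108109: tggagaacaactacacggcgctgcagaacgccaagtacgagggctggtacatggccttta
The probe of Fgf8 that lies furthest 5′ stood at -3.85, -3.90 and -3.86 in the gated, ungated and GFP- cells of E9.5. It stood at -4.14 and -4.23 at E11.5, and was not above background at E8.5. Which of the Fgf8 probes reports the gene was not tested. The markers of tail bud and presomitic mesoderm, where Fgf8 and Fgf17 are known to be made, summed to 21.6 and 18.7 at E8.5 and to 16.9 in the GFP- cells of E9.5, with 10 of 10 above background. In the gated and ungated cells of E9.5 they summed to 3.61 and 4.47 (7 and 8 of 10), and at E11.5 to 2.51 and 2.19 (5 and 6 of 10). T, the defining factor of the tail bud, was not above background in these 4 populations, in which Fgf8 stood between 0.60 and 1.14 on its first probe.

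Fgf1 was higher on both E11.5 arrays than at E9.5 by one of its probes and not by the other. The probe with the higher mean gave -3.22 and -2.86 in the GFP+ and GFP- cells of E8.5. At E9.5 it gave -3.28, -2.79 and -2.30 in the gated, ungated and GFP- cells, and at E11.5 1.32 in the gate and 0.48 in the ungated cells. This made the gate 24.3-fold and the ungated cells 9.60-fold higher at E11.5 than at E9.5. The other probe was not above background at E8.5 (-4.31 and -3.92), and stood at -2.88, -2.85 and -2.91 at E9.5 and -2.73 and -3.63 at E11.5, log2 differences of 0.14 in the gate and -0.78 in the ungated cells. The probes lie on the minus strand of chromosome 18, at 38998337 to 38998396 and 39018274 to 39018333 in mm9, and which of them reports the gene was not tested. In the mean of both probes the gate was higher by 2.37 log2 units and the ungated cells by 1.24, so the call for the ungated cells was lost.

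Fgf15 had its highest levels in the GFP- cells. Its levels were -2.46 in GFP+ and -1.22 in GFP- cells of E8.5, and -3.76 in the gate and -0.43 in the GFP- cells of E9.5. In the ungated cells of E9.5 and in both populations of E11.5 the signals of -4.99, -4.79 and -5.36 were not above background. The E9.5 GFP- cells were 10.1-fold above the gate and at least 18.3-fold above the ungated cells, and at E8.5 the GFP- cells were 2.37-fold higher. Fgf15 is known from the neural tube and brain of the embryo, and some of the neural markers were also higher in GFP- cells. At E8.5 these were Sox2 and Sox3, 2 of the 5, which were past 4-fold lower in GFP+ cells, as 2.43% of all genes were. They stood at -0.07 and 2.22 in GFP- against -3.84 and -1.38 in GFP+ cells. Sox1 (-1.96 and -1.87) and Olig2 (-0.84 and -1.03) differed little there, and the median log2 difference of the list, GFP+ minus GFP-, was -0.18. At E9.5 it was -1.77 for the gate and -2.19 for the ungated cells against the GFP- cells, with 2 and 3 of 5 past 4-fold lower, where 1.87% and 1.26% of all genes were. Of the 5 genes, 4 were above background in E8.5 GFP- cells (Pax6 was not) with a summed level of 6.48, and 5 in E9.5 GFP- cells with 25.3, against 4 or 5 and sums between 0.834 and 1.38 on the GFP+ arrays, where Sox2 was above background only at E8.5. Sox3 at 4.07 and Sox2 at 2.65 weighed most in the sum of the E9.5 GFP- cells. The part of neural cells in the Fgf15 signal was not tested.

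**Figure D3:**
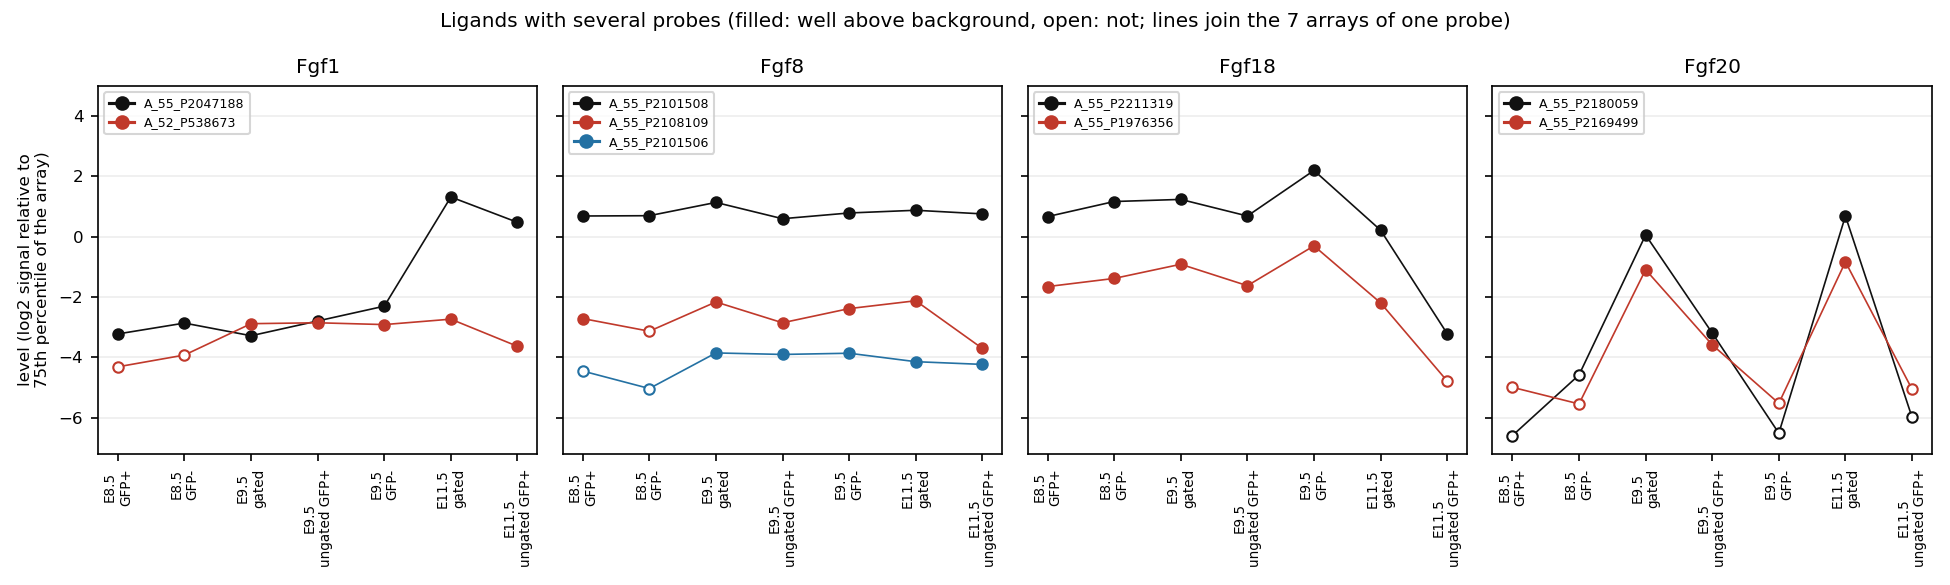
Levels of each probe of the ligands with more than 1 probe (log2 signal relative to the 75th percentile of the array), with lines joining the 7 arrays of a probe and open points where it was not well above background. The overlapping probes of Fgf18 and of Fgf20 follow the same course, whereas A_55_P2047188 of Fgf1 rises to 1.32 in the E11.5 gate where A_52_P538673 stays at -2.73.

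The ligands were then counted in each comparison, a difference counting from 4-fold, with the share of all measured genes past that fold beside it. The ligands were chosen with earlier results of these data known, so a count above that share is no test of the family. In E8.5 GFP+ against GFP- cells 7 of 10 ligands were measured, that is above background on at least 1 of the 2 arrays. Fgf9 and Fgf10 were higher, against 0.89% of all genes, and none was lower, against 2.43%, and the members' median log2 difference was -0.1 against 0.0 over all genes. In the E9.5 gate against the ungated cells 9 were measured. Fgf9 and Fgf20 were higher (0.839% of all genes) and none was lower (1.19%), with medians of 0.54 and -0.15 in the same order. Against the GFP- cells of E9.5, Fgf9, Fgf10 and Fgf20 were higher in the gate (1.18% of all genes) and Fgf15 was lower (1.87%), with 8 measured and medians of -0.06 and 0.01. The ungated cells of E9.5 had Fgf9 and Fgf10 higher than the GFP- cells (0.796%) and Fgf15 lower (1.26%), with 9 measured and medians of 0.03 and 0.13. These 3 comparisons at E9.5 share arrays, so their counts are not separate evidence. The ungated array lay on another slide than the gated and GFP- arrays, and in its comparisons with them the slide and the population cannot be told apart.

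The E11.5 gate against the ungated cells had the most ligands on one side. Of 8 measured, Fgf9, Fgf10, Fgf18 and Fgf20 were higher (2.15% of all genes) and none was lower (3.23%), and the median was 2.14 against 0.15 over all genes. Of 12 FGF family genes outside the chosen ligands, 10 were measured in this comparison, with 0 past 4-fold and a median of 0.04. Across stages, Fgf20 was higher in the E9.5 gate than in E8.5 GFP+ cells (2.4% of all genes, none lower against 1.58%), with 8 measured and medians of 0.20 and -0.00. Fgf1 was higher in the E11.5 than in the E9.5 gate (1.27%, none lower against 2.99%), with 8 measured and medians of 0.19 and -0.03. The arrays of both these comparisons lay on different slides. In the ungated cells Fgf1 was higher at E11.5 (1.6%) and Fgf9, Fgf10 and Fgf18 were lower (3.43%), with 9 measured and medians of -1.50 and -0.36. The medians of the 10 ligands rest on the 7 to 9 that were measured. Under a background correction with an added offset (normexp), which compresses dim signals, 12 of the 21 differences past 4-fold stayed past it, and in the E9.5 gate against the ungated cells none did, with log2 differences of 1.84 for Fgf9 and 1.86 for Fgf20. The other differences that dropped under 4-fold were Fgf9 at E8.5 (1.21), Fgf10 (1.67) and Fgf15 (-1.66) in the E9.5 gate against GFP- cells, Fgf9 (1.3) and Fgf15 (-1.9) in the ungated against the GFP- cells of E9.5, and Fgf9 (-1.85) and Fgf10 (-1.97) in the ungated cells across stages. All kept their direction.

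**Figure D4:**
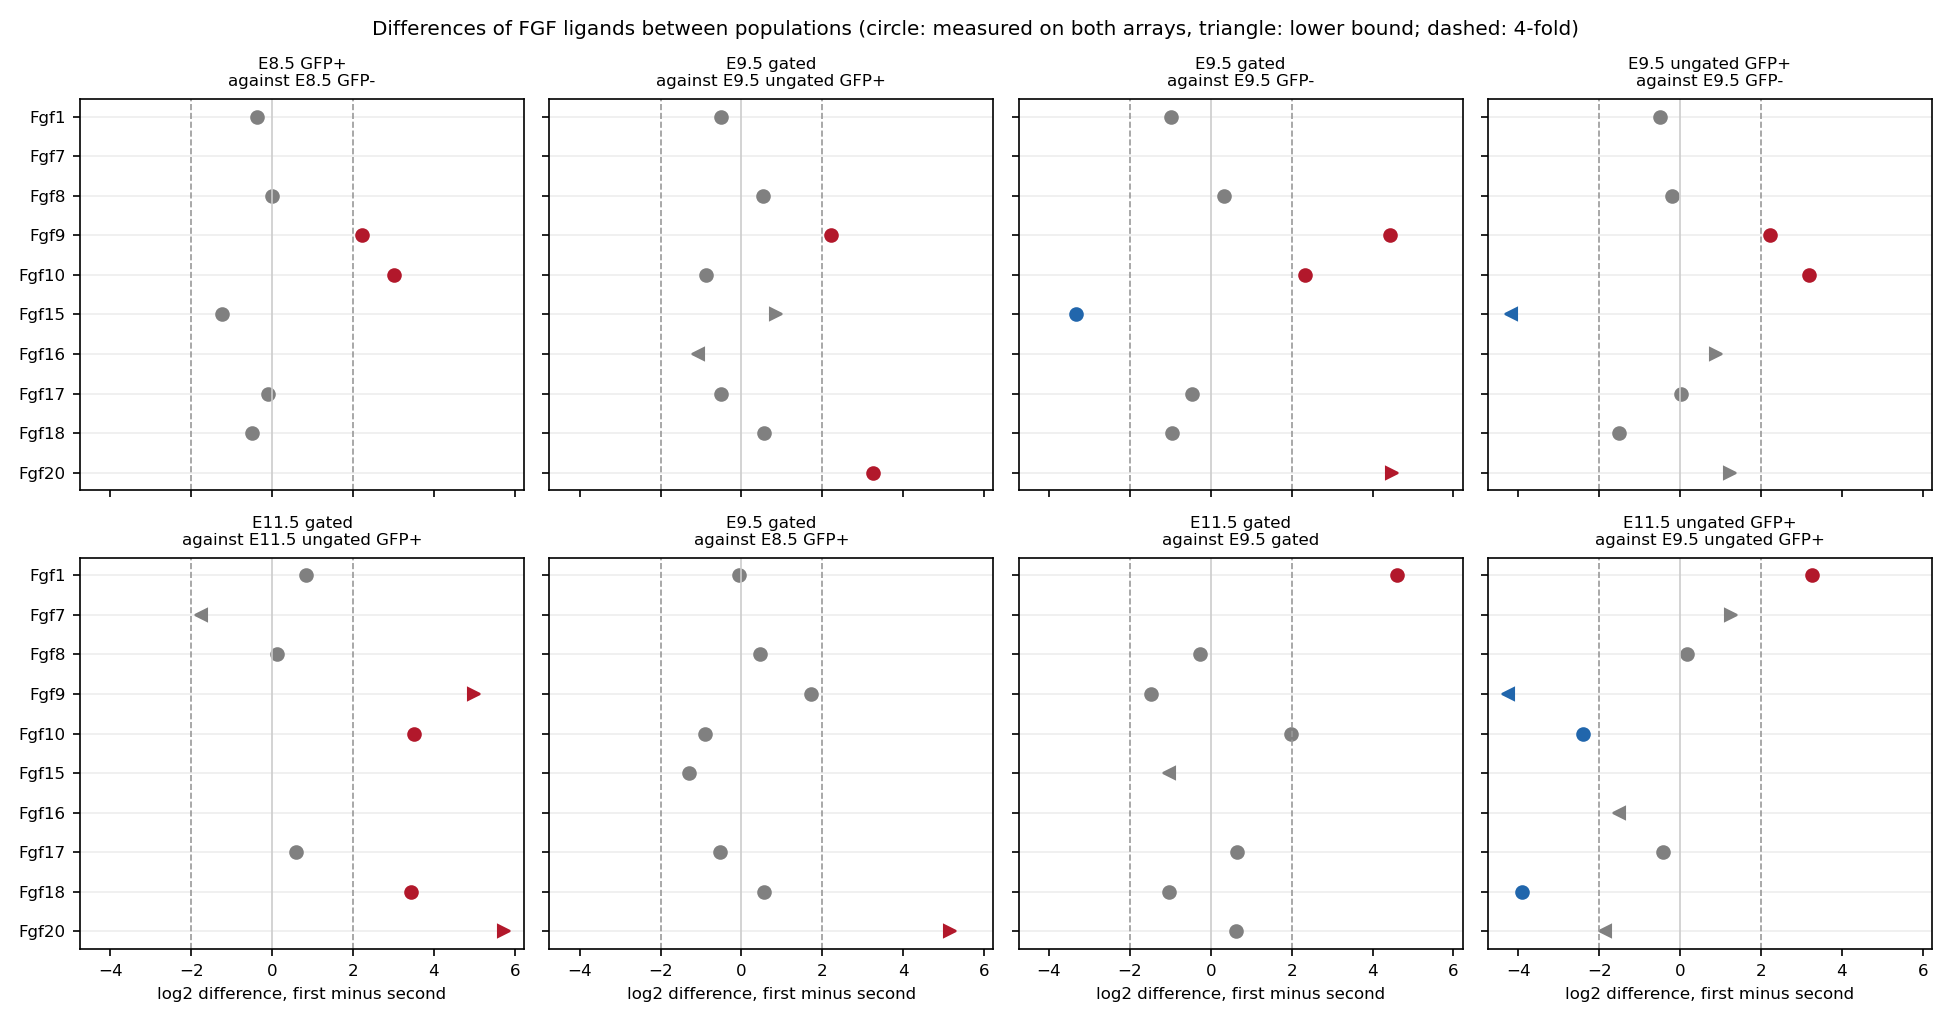
Log2 difference of each measured ligand in the 8 comparisons, first population minus second, with circles where both arrays were above background, triangles for lower bounds, red and blue for at least 4-fold higher and lower, and dashed lines at 4-fold. Fgf9, Fgf10, Fgf18 and Fgf20 lie to the right in the E11.5 gate, and Fgf9, Fgf10 and Fgf18 lie to the left in the ungated cells of E11.5 against E9.5.

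The 250 bases before the start site were looked up for the ligands in RefSeq's promoter table (GRCm38.p6), which held 4 of the 10: Fgf7, Fgf9, Fgf10 and Fgf18. They are shown because Fgf9, Fgf10 and Fgf18 moved together in the E11.5 comparison and Fgf7 went the other way. RefSeq's span of Fgf9 begins further upstream than the listed start site. Capitals mark matches to 5 motifs searched on both strands, namely the letters TATAAA of the core promoter, CCAAT that binds NF-Y, GGGCGG that binds Sp factors, CACGTG that binds basic helix-loop-helix factors, and GCGGGGGCG that binds Wt1 and Egr factors, and no matches overlapped.
Fgf7 (chr2:126034408-126034657, plus strand): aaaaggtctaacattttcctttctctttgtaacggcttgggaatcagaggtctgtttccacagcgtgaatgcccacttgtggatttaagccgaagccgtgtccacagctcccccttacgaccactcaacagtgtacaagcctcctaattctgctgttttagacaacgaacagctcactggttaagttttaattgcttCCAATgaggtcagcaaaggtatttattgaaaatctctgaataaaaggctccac
Fgf9 (chr14:58072436-58072685, plus strand): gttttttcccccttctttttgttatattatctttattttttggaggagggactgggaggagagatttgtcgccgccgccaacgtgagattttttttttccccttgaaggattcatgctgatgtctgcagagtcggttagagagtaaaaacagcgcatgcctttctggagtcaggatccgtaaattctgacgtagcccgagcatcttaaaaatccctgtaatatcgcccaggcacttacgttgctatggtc
Fgf10 (chr13:118714449-118714698, plus strand): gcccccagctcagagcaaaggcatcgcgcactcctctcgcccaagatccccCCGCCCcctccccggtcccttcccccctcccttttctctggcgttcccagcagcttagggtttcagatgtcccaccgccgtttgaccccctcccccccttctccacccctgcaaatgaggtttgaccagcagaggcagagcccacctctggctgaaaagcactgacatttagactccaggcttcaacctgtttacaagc
Fgf18 (chr11:33147401-33147650, minus strand): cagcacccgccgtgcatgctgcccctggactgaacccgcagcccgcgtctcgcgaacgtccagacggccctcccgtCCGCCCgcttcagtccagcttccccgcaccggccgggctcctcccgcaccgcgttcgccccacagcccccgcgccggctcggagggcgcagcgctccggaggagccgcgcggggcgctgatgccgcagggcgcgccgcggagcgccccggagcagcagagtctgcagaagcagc
Fgf7 had 1 CCAAT match that began at position -53, and Fgf10 and Fgf18 had 1 GGGCGG match each, on the reverse strand, at -199 and -174. Fgf9 had no match. Among 32851 promoters of the same length, 33.8% held CCAAT, 32.7% GGGCGG, 12.4% TATAAA, 6.02% CACGTG and 2.57% GCGGGGGCG. The windows differed in base composition: G and C made up 43.6% for Fgf7, 44.8% for Fgf9, 61.2% for Fgf10 and 77.2% for Fgf18, against a median of 52.4% over all promoters. A match describes the letters in the window and is not evidence of a site.

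Genes with profiles most like a ligand were sought among 20106 genes, by the root mean square difference over the 7 arrays after each profile was centred. Only ligands above background on at least 4 arrays with levels at least 2 log2 units apart were used. Nearest to Fgf9 were Amph (0.67), a protein of endocytosis at synapses, Col14a1 (0.89) and Plet1 (0.94), where the median gene lay 2.01 away. Fgf10 was followed most closely by Kcnmb2 and Nphp4 (0.75 each) and Chst2, a sulfotransferase (0.77). Fgf15 was nearest to Ednrb (0.56), the endothelin receptor of neural crest cells, Igsf21 (0.62) and Slain1 (0.66). For Fgf18 they were Spata13 (0.43), Gldc (0.53), the glycine cleavage enzyme, and Slc35g1 (0.54), and for Fgf1 Tmtc2 (0.62), the iron exporter Slc40a1 (0.63) and the guidance factor Sema3d (0.65). The Fgf1 profile is that of the probe whose rise at E11.5 the second probe did not show, and its neighbours rest on it. These are descriptions over 7 arrays that share slides and sorts.

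All 5 receptor genes (Fgfr1, Fgfr2, Fgfr3, Fgfr4 and the decoy Fgfrl1) were above background on every array. In any of the 8 comparisons 0 of 5 differed by 4-fold. Of all genes, 0.796% to 2.4% were past 4-fold higher per comparison and 1.19% to 3.43% lower. A list this short would hold few or none at that share, so the count does not set the receptors apart. Fgfr1, the main receptor of mesenchyme, stood between 6.36 and 6.82. Fgfr2 stood at -0.72 and -0.76 in the GFP+ and GFP- cells of E8.5 and at 0.84 and 0.53 in the gated and ungated cells of E11.5. The 7 transducers (Frs2, Frs3, Gab1, Grb2, Ptpn11, Shc1 and Sos1) were likewise above background on every array. Here too 0 of 7 were past 4-fold in any comparison, a list too short to be told apart from that share.

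The cofactors at the cell surface were the longest of the 5 pathway lists, with 20 or 21 of 22 measured per comparison. Per comparison 0 to 3 were past 4-fold higher and 0 to 2 lower, against 0.796% to 2.4% and 1.19% to 3.43% of all genes. The list medians lay between -0.25 and 0.47, and those of all genes between -0.36 and 0.15. This list also held the widest difference of the 5, that of Fgfbp3. Fgfbp3, a carrier that releases FGFs from heparan sulfate, was lower in GFP+ than in GFP- cells: its levels were -1.55 against 1.72 at E8.5, and -2.75 in the gate and -1.53 in the ungated cells against 3.56 at E9.5. The folds were 9.65, 79.4 and 34.1, and in the gate it was 4.45-fold higher at E11.5 than at E9.5. Sdc4, a heparan sulfate proteoglycan, was 6.16-fold and 15.4-fold higher in the gate of E9.5 and E11.5 than in the ungated cells. Flrt1, a membrane protein that binds FGF receptors, was 5.39-fold higher in the E9.5 gate than in the ungated cells of that stage. It was 14.1-fold higher in the E9.5 gate than in E8.5 GFP+ cells, 6.95-fold higher in the E11.5 than in the E9.5 gate and 15.5-fold higher across the ungated cells, while its relative Flrt2 was 7.69-fold lower in the E11.5 gate than in the ungated cells and 4.12-fold higher in those cells at E11.5 than at E9.5. Of the sulfatases that trim heparan sulfate, Sulf1 was 6.21-fold lower and Sulf2 4.87-fold higher in the E11.5 than in the E9.5 gate. Hs6st1, which adds sulfate to the chains, was 4.14-fold lower in the ungated than in the GFP- cells of E9.5. Of Kl and Klb, cofactors of hormone-like FGFs, Kl was above background on no array and Klb on 2.

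Among 12 further FGF family genes, 9 to 11 were measured per comparison and 0 were past 4-fold, bounds included, in the 5 comparisons within a stage. Of all genes, 0.796% to 2.15% were past 4-fold higher and 1.19% to 3.23% lower in these comparisons. A list this short would hold few or none at that share, so the count does not set these genes apart. Across stages Fgf5 was 4.15-fold higher in the E9.5 gate than in E8.5 GFP+ cells and 5.14-fold lower in the E11.5 than in the E9.5 gate, with levels of -2.52, -0.47 and -2.83. It was also 4.86-fold lower in the ungated cells at E11.5. Fgf4, a ligand of the primitive streak, was at least 6.43-fold lower in the E9.5 gate than in E8.5 GFP+ cells, and Fgf21, a hormone-like FGF, at least 6.34-fold lower in the E11.5 than in the E9.5 gate. In the E9.5 gate against E8.5, 1 of 10 measured was higher and 1 lower, where 2.4% and 1.58% of all genes were. Between the gates 2 of 9 were lower (2.99% of all genes) and between the ungated cells 1 of 11 (3.43%), with 0 higher in both.

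Of the 13 targets and feedback inhibitors, 1 or 2 were past 4-fold in 4 of the 8 comparisons and 0 in the other 4. In E8.5 GFP+ against GFP- cells it was 0 of 12 measured, with a median log2 difference of 1.07 (-0.14 to 1.72) against 0.00 over all genes. In the E9.5 gate against the ungated cells it was 0 of 13, with a median of 0.58 (-0.47 to 1.49) against -0.15, and against the GFP- cells 0 of 13, with 0.43 (-1.48 to 1.36) against 0.01. In the ungated against the GFP- cells of E9.5 the median lay near that of all genes, at -0.02 (-2.26 to 0.75) against 0.13. In the E11.5 gate 2 of 13 were higher and 0 lower than in the ungated cells, where 2.15% of all genes were higher and 3.23% lower, with a median of 1.0 (-1.24 to 2.88) against 0.15. The targets that were higher there, the MAP kinase phosphatase Dusp4 and the transcription factor Etv4, reached their gap in different ways. Dusp4 was lower at E11.5 than at E9.5 on both sides, and Etv4 was higher in the gate and lower in the ungated cells: Dusp4 stood at -0.79 and -1.29 in the gate of E9.5 and E11.5 and at -2.28 and -4.17 in the ungated cells, whereas Etv4 stood at 3.46 and 4.33 in the gate and at 2.49 and 1.69 in the ungated cells. In the ungated cells across stages the median was -0.73 (-1.93 to 0.79) against -0.36, with 0 of 13 past 4-fold. Il17rd, an inhibitor of FGF receptors at the membrane, stood at 5.58 and 5.35 in the gates and at 5.39 and 3.47 in the ungated cells, a log2 difference of 1.89 at E11.5 that lay just short of 4-fold.

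**Figure D5:**
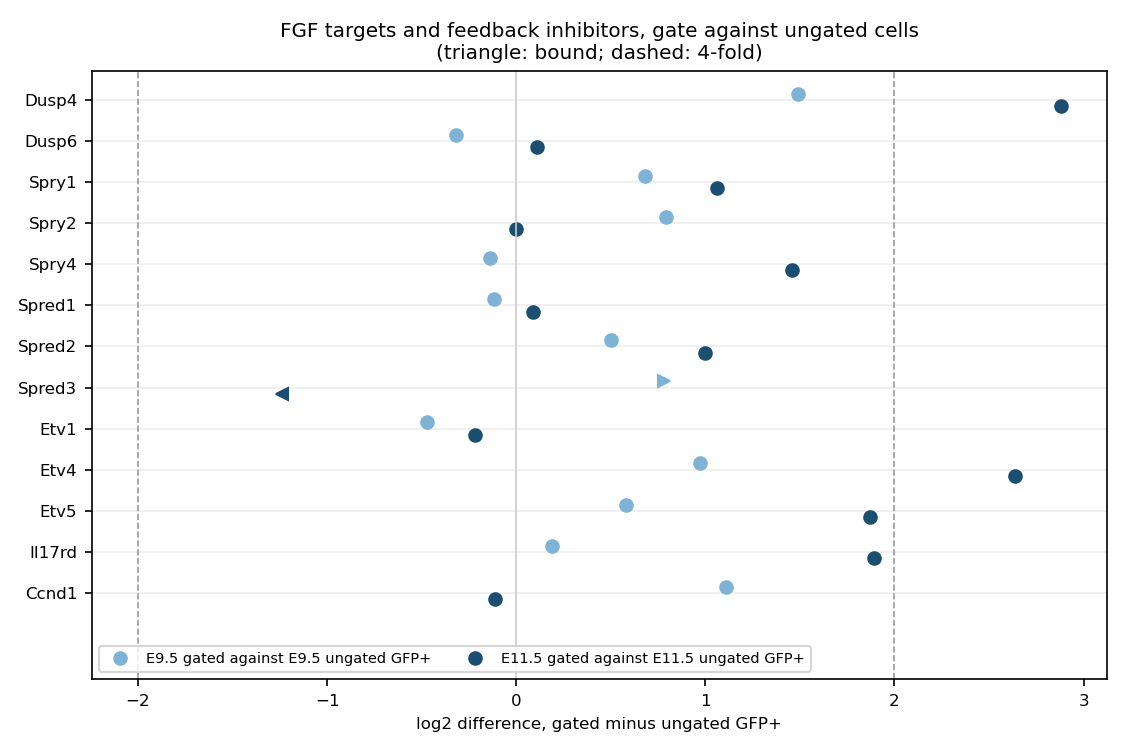
Log2 difference of 13 FGF targets and feedback inhibitors, gated minus ungated cells, at E9.5 (light) and E11.5 (dark), with triangles for bounds and dashed lines at 4-fold. Dusp4 at 2.88 and Etv4 at 2.64 lie past 4-fold at E11.5, and no gene does at E9.5.

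Single targets were also apart in other comparisons. Spry1, an inhibitor of Ras signalling that limits the ureteric bud, was 5.46-fold higher in the E9.5 gate than in E8.5 GFP+ cells, the only 1 of 13 past 4-fold there, where 2.40% of all genes were higher. The median of the list was 0.46 (-0.87 to 2.45) against -0.00. Ccnd1, the cyclin of the early cell cycle, was 4.93-fold lower in the E11.5 than in the E9.5 gate, with 1 of 13 lower and 0 higher, where 2.99% of all genes were lower. The median was -0.22 (-2.30 to 1.04) against -0.03. Spred3 was at least 4.8-fold lower in the ungated than in the GFP- cells of E9.5, again 1 of 13 with 0 higher, where 1.26% of all genes were lower. Dusp6, a phosphatase of the MAP kinases, stayed between 3.88 and 5.66 over all arrays.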

How the data were processed

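For each of 7 sorted populations 10 ng of RNA was amplified, labelled with Cy3 and put on 1 Agilent array of the mouse, per the labels. Per the submitters' processing notes, the authors read the intensity of the spots by Agilent Feature Extraction (version 10.7.3.1). The intensity is linear, background-subtracted, detrended and not scaled across arrays, per the file headers, and the deposited value table holds the same values (100% equal). Levels were computed as log2 intensity minus that of the array's 75th percentile over non-control spots. Spots flagged as non-uniform or as outliers (127 to 160 per array) were left out, and the spots of a probe were averaged. A probe counted as above background where at least a share of 0.5 of its spots was. Symbols came from RefSeq by transcript accession for 26425 probes and from the files for 8933, and 20323 probes had no gene name. A gene was represented by the probe with the highest mean.

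For 8 comparisons a gene was measured if at least 1 of the 2 arrays was above background. Where the other was not, its value was raised to the lowest above-background level of that array if it lay under it. This gives "at least" folds. That level is not a detection limit. On the E8.5 GFP+ array it was -5.1, and Fgf7 at -4.25 was not above background there. No test was run, and 1 array per population limits the precision. Among 399 probes spotted 10 times the spot SD was 0.13 log2 units, or 0.18 for a difference. Slide and population cannot be told apart in the 4 comparisons that cross slides: the E9.5 ungated cells against both other E9.5 populations, the E9.5 gate against E8.5, and the gates across stages.

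Named genes were all 10 ligands, at most the 4 furthest-apart members per pathway list and comparison among those past 4-fold, and the 3 nearest profiles per ligand. Other values of list members were picked after they were seen. Members and lists were chosen with earlier results of these data known. Computations used Python 3.11.15, numpy 2.4.6, pandas 2.3.3, matplotlib 3.10.9, R 4.3.3 and limma 3.58.1 (normexp, offset 50), and were tested on simulated data. The 7 alternatives were quantile normalization, normexp, the unscaled table, the mean of all probes, genes above background on both arrays, no filter or bound, and 2-fold.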

Additional observations from a re-analysis of the deposited data

Results flagged for a closer look

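On the probes that represent them, Fgf1, Fgf10 and Fgf17 lay lower in the gate than in the ungated cells at E9.5 and higher at E11.5. Only for Fgf10 did a difference reach 2-fold. The median over all genes also went from -0.15 at E9.5 to 0.15 at E11.5. How many of all genes change side was not counted. Each population had 1 array, so these differences between stages were not tested. For Fgf10 the log2 difference was -0.87 at E9.5 and 3.51 at E11.5, a change of 4.39. For Fgf1 it was -0.50 and 0.84, a change of 1.34. The other probe of this gene gave -0.03 and 0.90, and so showed next to no difference at E9.5. For Fgf17 the log2 difference was -0.50 and 0.58, a change of 1.08. The E9.5 arrays of this contrast lay on different slides and the E11.5 arrays on one slide.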

How the results depend on the processing

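Of the 21 ligand differences past 4-fold, none changed direction under the 6 alternatives that recompute them, of which the requirement of background on both arrays could measure 15. Quantile normalization and the unscaled table kept all 21 past 4-fold, the mean of all probes 20, that requirement 15 of 15, and the lack of filter and bound 21. With normexp 12 stayed. The ligands past 4-fold were then 1 in GFP+ against GFP- cells of E8.5, where 31 of the 20102 measured genes were higher and 136 lower. They were 0 in the E9.5 gate against ungated cells (42 and 46 of 23610 genes). Against the GFP- cells they were 2 in the E9.5 gate (60 and 115 of 21488) and 1 in the ungated cells (34 and 96 of 23734). In the ungated cells across stages they were 2 (129 and 135 of 23707). With background required on both arrays they were 2 in the E11.5 gate against ungated cells (307 and 378 of all genes). In the E9.5 gate against E8.5 they were 0 (232 and 194). The E9.5 gate had 2 higher and 1 lower than the GFP- cells (161 and 215), and the ungated cells had 2 higher and 0 lower (106 and 225). Across stages the ungated cells had 1 higher and 2 lower (310 and 360). Fewer genes are measured when both arrays must be above background, so these counts of all genes give no share. Without filter or bound they were 5 in the ungated against the GFP- cells of E9.5 (1459 and 439 of all genes). In the E9.5 gate against E8.5 they were 2 (969 and 529). At E8.5, 2 were higher and 1 lower in GFP+ cells (543 and 669). The E11.5 gate had 4 higher and 1 lower than the ungated cells (1014 and 920). Across stages the ungated cells had 1 higher and 5 lower (449 and 2777). Dropping the filter adds genes that were not above background, so these counts cannot be read against the shares given above. At 2-fold they were 5 in the ungated against the GFP- cells of E9.5, where 8.57% of all genes were higher and 5.17% lower. They were 3 in the E9.5 gate against E8.5 (12.7% and 6.84%) and 5 between the gates (6.05% and 11.9%). Between the ungated cells across stages they were 7, where 6.36% of all genes were higher and 22.1% lower. The median of all genes between the ungated cells across stages was -0.36, and -0.00 with quantile normalization, where 737 genes were higher and 418 lower, against 379 and 814. The split of higher and lower genes also turned for the E9.5 gate against ungated cells (198 and 280, then 436 and 306) and when the E9.5 gate was set against E8.5 (513 and 338, then 360 and 433). With the same normalization it became 193 and 562, from 189 and 300, for the ungated against GFP- cells of E9.5, and 342 and 503, from 274 and 644, between the gates. In the unscaled table it became 193 and 508, from 254 and 402, when the E9.5 gate was set against GFP- cells. Without filter or bound it turned for the ungated against GFP- cells of E9.5, from 189 and 300 to 1459 and 439, and for the E11.5 gate against ungated cells, from 467 and 702 to 1014 and 920. No paired analysis was possible because each population had 1 array. Signals near background, as of Fgf7 and Fgf16, give bounds alone.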
